A study of Homo sapiens with 4 samples.

Results

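RAD21 peaks at bidirectional protein-coding promoters were examined in untreated wild-type HCT116 cells, a human colon carcinoma line. A peak was taken as a member when its summit lay on chromosomes 1 to 22 and within 1 kb of the 5′ ends of a pair of protein-coding genes on opposite strands that pointed away from each other, with the 5′ ends at most 1 kb apart. There were 379 such peaks among the 55201 peaks of chromosomes 1 to 22 and the 56853 peaks of the whole list. The comparison group was the 5813 other peaks whose summit lay within 1 kb of a protein-coding 5′ end. The annotation held 861 divergent pairs of this kind. Pairs that shared a gene were counted as 1 promoter, which left 799 bidirectional promoters, and the 379 peaks lay at 335 of them.

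The study measured RAD21 binding by ChIP-seq with antibody ab992 in wild-type HCT116 cells and in HCT116_RAD21_AID cells. The latter line is a clone with the mAID degron integrated into the RAD21 gene and with expression of the OsTIR1 ubiquitin ligase, and it was used untreated or after 6 h with indole-3-acetic and α-naphthaleneacetic acid at 500 μM each. An Input library came from the auxin-treated clone. All values below were taken from the peaks of 1 library, the wild-type one, which carries no degron and received no auxin; the other 3 libraries were not analysed here.

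RAD21 is the kleisin subunit of cohesin, the ring-shaped complex that extrudes chromatin loops and holds sister chromatids together. Loop extrusion is often halted where CTCF is bound, so that strong cohesin peaks are typically found at CTCF sites, while weaker signal is also seen at active promoters. At a bidirectional promoter, a short and mostly CpG-rich stretch of DNA serves as the upstream region of both genes, and RNA polymerase II initiates outward on both strands. Many housekeeping genes, among them genes of DNA repair, histones and mitochondrial proteins, are arranged in this way.

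The stretches between the 5′ ends of the gene pairs show what such a promoter looks like, and 6 of them are printed here because they belong to the pairs with the highest RAD21 enrichment whose 5′ ends lay 40 to 300 bp apart, except for RBIS/CA13 and ATP6V1G2-DDX39B/NFKBIL1, which are not shown. Each runs on the plus strand of GRCh38 from the base after the 5′ end of the minus-strand gene, named first, to the base before the 5′ end of the plus-strand gene, named second. No exon of any transcript in the annotation overlapped them. Capitals mark exact matches, on either strand, to short promoter motif cores, namely CCGGAAG of ETS factors, GGGCGG of SP and KLF factors, CCAAT of NFY and TCTCGCGAG of ZBTB33.
MED23/ENPP3 (chr6:131628243-131628441): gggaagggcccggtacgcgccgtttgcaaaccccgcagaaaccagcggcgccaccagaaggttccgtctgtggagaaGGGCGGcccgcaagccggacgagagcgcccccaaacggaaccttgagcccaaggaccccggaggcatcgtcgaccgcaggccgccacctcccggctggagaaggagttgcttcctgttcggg
CLDN1/CLDN16 (chr3:190322447-190322540): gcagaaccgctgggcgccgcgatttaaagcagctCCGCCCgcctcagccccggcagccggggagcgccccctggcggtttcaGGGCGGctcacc
SAXO1/RRAGA (chr9:19049359-19049426): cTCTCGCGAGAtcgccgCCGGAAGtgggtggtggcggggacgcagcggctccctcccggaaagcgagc
DST/BEND6 (chr6:56954831-56955106): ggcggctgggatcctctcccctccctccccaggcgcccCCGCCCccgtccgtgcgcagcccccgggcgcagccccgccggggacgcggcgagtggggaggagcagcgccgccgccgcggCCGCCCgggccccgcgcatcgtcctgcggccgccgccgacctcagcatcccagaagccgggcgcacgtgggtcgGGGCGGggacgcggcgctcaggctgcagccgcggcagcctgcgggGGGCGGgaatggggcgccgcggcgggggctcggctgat
ATAD2B/UBXN2A (chr2:23927124-23927284): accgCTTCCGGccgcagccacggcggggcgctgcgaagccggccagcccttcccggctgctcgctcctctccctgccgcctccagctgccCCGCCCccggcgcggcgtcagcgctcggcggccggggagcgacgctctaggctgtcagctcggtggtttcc
GON7/UBR7 (chr14:93207066-93207240): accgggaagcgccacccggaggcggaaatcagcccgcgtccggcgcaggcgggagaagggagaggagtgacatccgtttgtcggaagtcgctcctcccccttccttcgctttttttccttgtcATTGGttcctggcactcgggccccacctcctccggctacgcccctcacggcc

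The share of G and C in these stretches ranged from 65.7% at GON7/UBR7 to 83.0% at DST/BEND6. The GGGCGG core occurred 4 times in DST/BEND6, 2 times in CLDN1/CLDN16 and 1 time each in MED23/ENPP3 and ATAD2B/UBXN2A. SAXO1/RRAGA held an ETS core and a ZBTB33 core that was read on both strands with an overlap, ATAD2B/UBXN2A held an ETS core, and GON7/UBR7 held a CCAAT core. A match to these letters is a description of the sequence and does not show that a factor was bound.

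Most peaks at bidirectional promoters were weak. The fold enrichment over Input, taken at the summit as the number of ChIP fragments to the local background with 1 added to each, had a median of 3.42 in the 379 members, with quartiles of 2.85 and 4.49 and a range of 1.87 to 29.7. It had a median of 3.73 in the 5813 other promoter peaks, with quartiles of 2.96 and 6.13, and of 5.60 in all peaks of chromosomes 1 to 22. A fold enrichment of at least 10 was reached by 24 members, or 6.33% (95% Wilson interval 4.29 to 9.25%), against a background of 27.4% of all peaks on these chromosomes. The share was 14.3% (13.4 to 15.2%) in the other promoter peaks and 9.69% (7.65 to 12.2%) in the 650 of them whose gene had a lncRNA gene in the same divergent arrangement. The interval of the members thus lay below that of the other promoter peaks and overlapped that of the promoters with a divergent lncRNA. Such intervals cover counting error only, and with 1 library there was no replicate spread to compare a difference with. Conversely, 305 members, or 80.5%, had a fold enrichment below 5, compared with 68.6% of the other promoter peaks and 44.9% of all peaks.

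**Figure D1:**
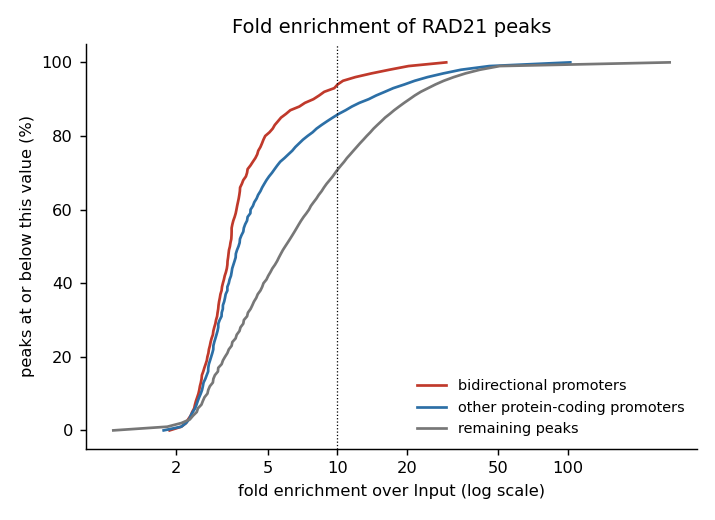
Cumulative share of RAD21 peaks (y axis, %) at or below a given fold enrichment over Input (x axis, log scale) for the 379 peaks at bidirectional promoters, the 5813 other protein-coding promoter peaks and the remaining peaks of chromosomes 1 to 22, with a dotted line at 10. The curve of the bidirectional promoters lies to the left of both others from the lower quartile upward, with medians of 3.42 and 3.73 for the promoter groups.

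The lower ratio came with slightly fewer fragments and a slightly higher background. At the summit, ChIP fragments had a median of 29 in the members, 31 in the other promoter peaks and 48 in all peaks, and the median background was 7.58, 7.15 and 6.76 fragments. The background stood at its floor of 5.90 fragments, the genome-wide mean, in 10.8% of the members, in 20.0% of the other promoter peaks and in 30.1% of all peaks. The members had a median width of 436 bp, against 490 bp in the other promoter peaks. Restricting the comparison to CpG-rich summit windows, with at least 50% G and C and a CpG observed to expected ratio of at least 0.6 over 301 bp, left 321 members with a median fold enrichment of 3.43 and 4506 other promoter peaks with 3.62. In these windows a fold enrichment of at least 10 was reached by 5.92% (3.82 to 9.06%) of the members and by 12.3% (11.4 to 13.3%) of the others.

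The 4 strongest peaks had their summit between the 5′ ends. Of the 12 members with the highest fold enrichment, 6 had their summit between the genes and 6 within 1 of the genes. The highest value was 29.7 at CASKIN2/TSEN54 (chr17:75514846-75516507), with 282 ChIP fragments (exact Poisson 95% interval 250.0 to 316.9) on a background of 8.52. CASKIN2 encodes a scaffold protein of the Caskin family, TSEN54 encodes a subunit of the tRNA splicing endonuclease, and the summit lay 39 bp upstream of TSEN54. MED23/ENPP3 (chr6:131628017-131628660) followed with 28.5 and 297 fragments, and its summit fell 98 bp outside the nearer gene, close to the middle of the stretch printed above. MED23 encodes a subunit of Mediator, the complex that links transcription factors to RNA polymerase II, and ENPP3 encodes an ectonucleotidase of the cell surface.

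ATP6V1G2-DDX39B/NFKBIL1 (chr6:31546492-31547057) had a fold enrichment of 28.0 and 249 fragments. Its minus-strand gene is a readthrough entry of the annotation, so that this pair does not stand for an independent gene on that side, and its stretch was not printed because exons of other transcripts overlapped it. At CLDN1/CLDN16 (chr3:190321964-190322830) the fold enrichment was 24.2, from 275 fragments on a background of 10.4, and the summit lay in the middle of the 94 bases shown above. Both genes encode claudins of tight junctions, CLDN1 in many epithelia and CLDN16 in the kidney. TNS1/RUFY4 (chr2:218034562-218035247) reached 16.3 with its summit 56 bp upstream of RUFY4, and its 5′ ends lay 978 bp apart, near the limit of the rule. TNS1 encodes tensin 1 of focal adhesions. ATAD2B/UBXN2A (chr2:23926758-23927617) reached 15.4 with 134 fragments, and ATAD2B encodes a bromodomain protein and UBXN2A an adaptor of the segregase p97.

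The other 6 had their summit inside a gene. IDE/KIF11 (chr10:92574084-92574839) had a fold enrichment of 19.3 with the summit 412 bp into KIF11, the motor that separates the spindle poles, while IDE encodes the insulin-degrading enzyme. Its 5′ ends lay only 9 bp apart, and the peak covered both. SAXO1/RRAGA (chr9:19048873-19049849) had 18.3 with the summit 177 bp into SAXO1, a gene of axonemal microtubules, and RRAGA encodes a Rag GTPase that signals amino acids to mTORC1. CENPB/CDC25B (chr20:3786743-3787128) had 17.8 with the summit 148 bp into CDC25B, a phosphatase that activates cyclin-dependent kinases before mitosis, and CENPB encodes a protein bound to centromeric repeats.

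RBIS/CA13 (chr8:85220478-85221077) had a fold enrichment of 17.5 on the highest background of these 12, 13.3 fragments, with the summit 194 bp into CA13, which encodes a carbonic anhydrase. DST/BEND6 (chr6:56955075-56956174) had 15.9 with the summit 214 bp into BEND6, and GON7/UBR7 (chr14:93206727-93207960) had 14.1 with the summit 409 bp into UBR7. DST encodes the cytoskeletal linker dystonin, and GON7 a subunit of the KEOPS complex that modifies tRNA. The 12 remaining members with at least 10 ranged from 10.0 at NOP10/NUTM1 to 14.0 at JMJD6/METTL23.

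**Figure D2:**
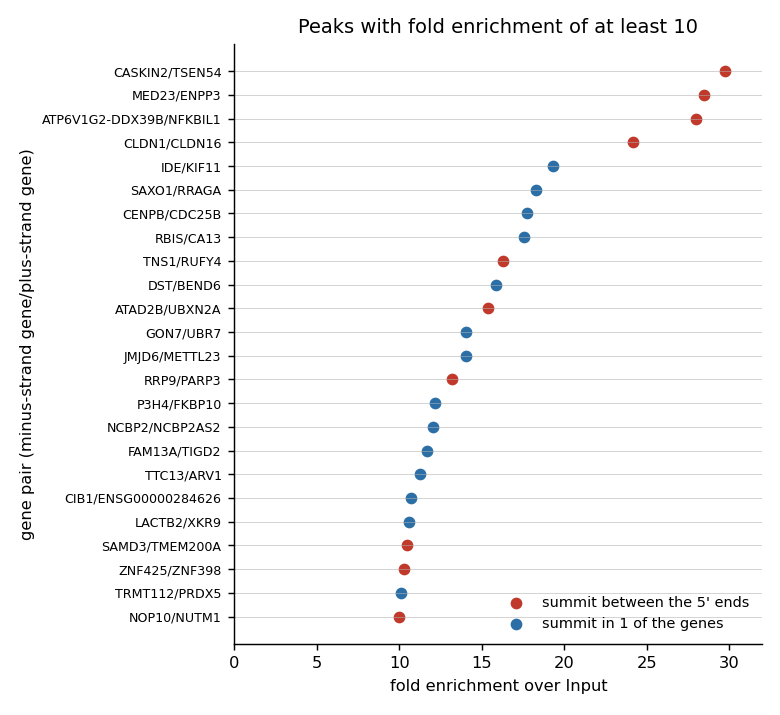
Fold enrichment over Input (x axis) of the 24 peaks at bidirectional promoters with a value of at least 10, one row for each gene pair (y axis), coloured by whether the summit lay between the 5′ ends (10 peaks) or in 1 of the genes (14 peaks). The 4 highest, from 24.2 to 29.7, all had their summit between the 5′ ends.

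The lowest members stood on a raised background. Among them were ZSCAN32/ZNF174 (2.10), CFAP210/PHOSPHO2 (2.10), TK1/AFMID (2.05) and IKZF5/ACADSB (1.95). At TK1/AFMID, where TK1 encodes the cytosolic thymidine kinase, 36 ChIP fragments (exact Poisson 95% interval 25.2 to 49.8) stood on a background of 17.1. The background of these 4 was above 10 fragments, compared with a median of 7.58 over all members. This follows in part from the listing. A fold enrichment this low passes the threshold of the peak caller only with more fragments, and thus on a higher background.

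Most summits lay inside 1 of the genes. Between the 5′ ends lay 32 of the 379 summits, or 8.44% (6.04 to 11.7%), which was close to the 9.30% that this stretch made up of the length in which a summit could qualify. A further 173 lay in the minus-strand gene and 174 in the plus-strand gene, so that neither side was preferred. The 347 summits in a gene were at a median of 260 bp from its 5′ end, with quartiles of 150.5 and 408.5 bp, and 203 of all members, or 53.6%, lay 100 to 400 bp into a gene. The distance from the midpoint of the pair had a median of 315 bp, and 18 summits were within 50 bp of it. Among the 5813 other promoter peaks, 41.1% (39.9 to 42.4%) lay upstream of the 5′ end, and those downstream were at a median of 339 bp. The rule admits a summit upstream of a bidirectional 5′ end only as far as the partner gene, and thus the upstream shares are not measured over equal lengths.

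**Figure D3:**
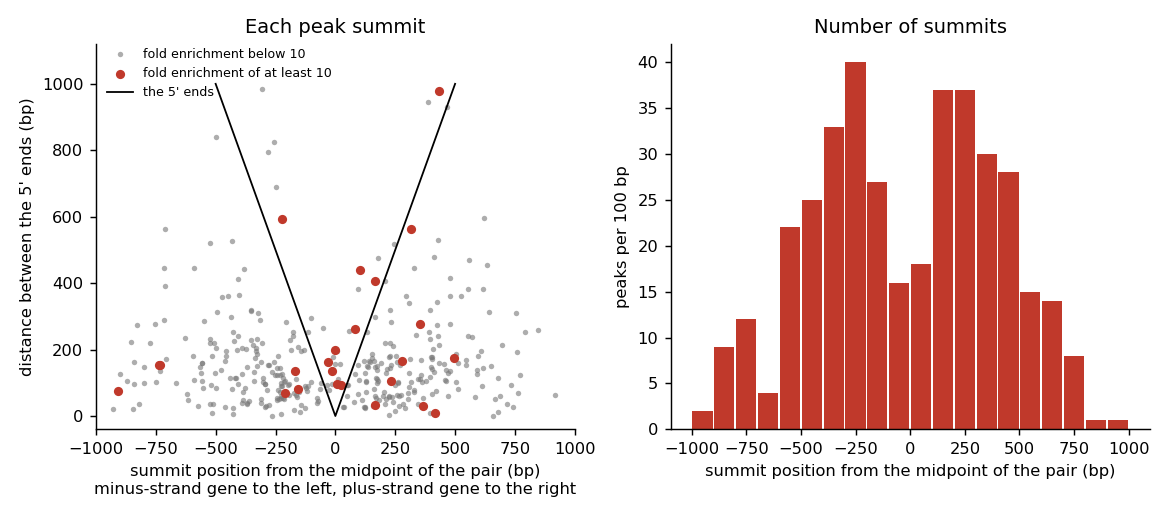
Left, position of each of the 379 summits relative to the midpoint of its pair (x axis, bp) against the distance between the 5′ ends (y axis, bp), with black lines at the 5′ ends and red points for a fold enrichment of at least 10. Right, number of summits per 100 bp of distance from the midpoint, with maxima of 40 summits at 200 to 300 bp on the minus-strand side and of 37 in each of the bins from 100 to 300 bp on the plus-strand side, and with 16 and 18 in the bins next to the midpoint.

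Enrichment differed by position. The 32 summits between the 5′ ends had a median fold enrichment of 5.68, and 10 of them, or 31.3% (18.0 to 48.6%), reached at least 10. The 347 summits in a gene had a median of 3.35, and 14, or 4.03% (2.42 to 6.66%), reached at least 10. The other promoter peaks showed the same order, with a median of 5.99 and a share of 29.3% (25.8 to 33.1%) for the 597 summits within 100 bp upstream of the 5′ end, and with 3.44 and 7.36% (6.54 to 8.29%) for the 3422 summits downstream. At like positions, the share with at least 10 was thus lower in the members than in the others inside genes, with intervals that overlapped narrowly, and next to the 5′ end the intervals overlapped widely. A peak that covered both 5′ ends was found in 86 cases, or 22.7%, with a median fold enrichment of 4.59.

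At 44 bidirectional promoters, 13.1% (9.93 to 17.2%) of those with a peak, there were 2 peaks. In 42 of the 44 the peaks flanked the promoter, with 1 summit in each gene, and the exceptions were MRPL21/IGHMBP2 and HSDL1/DNAAF1, where both summits lay in the same gene. The summits were a median of 842.5 bp apart, within 342 to 1493 bp. Over all 44 promoters, the higher of the 2 peaks exceeded the lower by a median of 1.34 times, by less than 1.5 times at 32 promoters and by at least 2 times at 4, which were JMJD6/METTL23 (14.0 against 2.40), DST/BEND6 (15.9 against 3.09), SARS2/MRPS12 (8.34 against 2.88) and MRPL21/IGHMBP2 (7.83 against 2.75). The left peak was higher at 22 promoters and the right peak at 22. The 88 peaks had a median fold enrichment of 3.08, below the 3.48 of promoters with 1 peak, and at 37 promoters both were below 5. None of these 88 peaks had the exact CTCF consensus described below, which was also rare in all members, at 4 of 379 or 1.06%. Of the 5686 single protein-coding promoters with a peak, 9.18% (8.46 to 9.96%) had more than 1. This interval narrowly overlapped that of the bidirectional promoters with 2 peaks, 9.93 to 17.2%. Peaks on both sides of the 5′ end were found at 7.88% (7.21 to 8.61%) of these single promoters. Of the bidirectional promoters with a peak, 12.5% (9.41 to 16.5%) were flanked. These last 2 shares are not measured alike. A single promoter needed a summit to either side of its 5′ end, and a bidirectional one needed a summit inside each gene. CpG content was not matched.

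**Figure D4:**
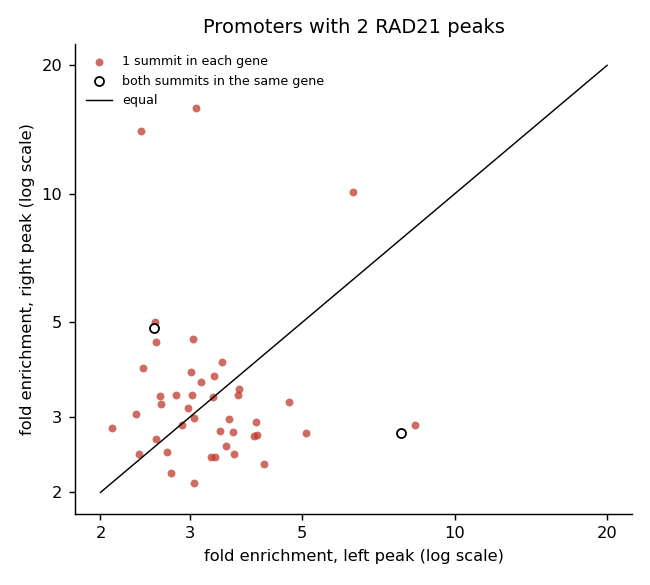
Fold enrichment over Input of the left peak (x axis, log scale) and the right peak (y axis, log scale) at the 44 bidirectional promoters with 2 RAD21 peaks; open circles mark the 2 promoters with both summits in the same gene and the line marks equal values. Most points lie below 5 on both axes and near the line, and the 2 farthest above it are JMJD6/METTL23 and DST/BEND6.

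Bidirectional promoters carried a peak more often than single ones, while among CpG-rich promoters the shares were close. A member was found at 335 of 799 bidirectional promoters, or 41.9% (38.6 to 45.4%), whereas 32.6% (31.9 to 33.3%) of 17452 protein-coding genes in no divergent pair had a summit within 1 kb. The latter, called single here, still included genes of opposite-strand pairs whose annotated 5′ ends overlap, which the rule does not take. Since a summit had to lie within 1 kb of both 5′ ends, the window around a pair was shorter than that around a single 5′ end. With an equal window of 500 bp to each side of the midpoint or the 5′ end the shares were 34.9% (31.7 to 38.3%) and 24.0% (23.4 to 24.6%). Single genes with a divergent lncRNA had 35.0% (32.5 to 37.5%) in that window. Of the bidirectional promoters 86.5% were CpG-rich, against 57.1% of the single ones. Among CpG-rich promoters, 36.6% (33.1 to 40.3%) of 691 bidirectional and 35.4% (34.5 to 36.4%) of 9964 single ones had a summit within 500 bp, and these intervals overlapped. Among the remaining promoters the shares were 24.1% (17.0 to 32.9%) of 108 and 8.79% (8.17 to 9.45%) of 7488. Summits with a fold enrichment of at least 10 were found within 500 bp at 2.63% (1.73 to 3.99%) of the bidirectional and 3.31% (3.05 to 3.58%) of the single promoters. Whether the promoters were transcribed in these cells was not tested, as the list holds no expression.

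**Figure D5:**
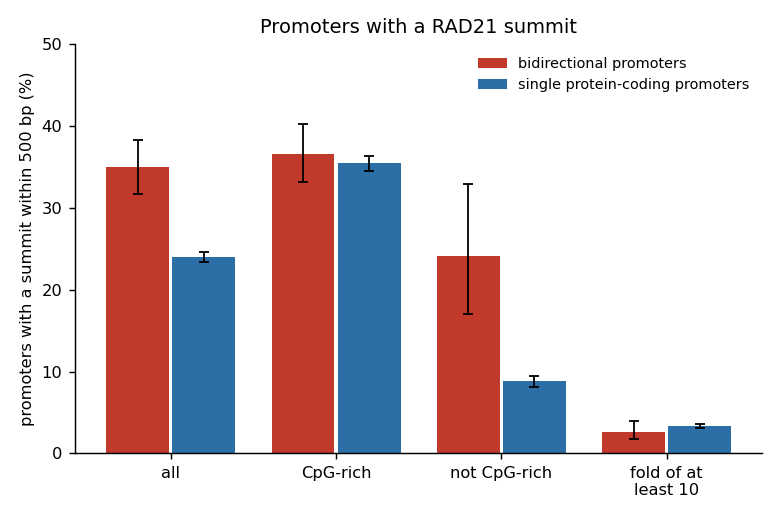
Share of bidirectional (red) and single (blue) protein-coding promoters with a RAD21 summit within 500 bp of the midpoint or the 5′ end (y axis, %), for all promoters, CpG-rich ones, the others, and all promoters counting summits with a fold enrichment of at least 10; error bars are 95% Wilson intervals. The bars of CpG-rich promoters, 36.6% and 35.4%, stand at nearly the same height, while those of the others differ, 24.1% and 8.79%.

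Fold enrichment varied little with the distance between the 5′ ends. This distance had a median of 130 bp in the members, with quartiles of 72 and 212.5 bp, and 128 bp over all 799 promoters. The median fold enrichment was 3.48 in the 137 members below 100 bp, 3.38 in the 193 at 100 to below 300 bp and 3.38 in the 49 at 300 to 1000 bp. The share of promoters with a summit within 500 bp of the midpoint was 35.0% (29.9 to 40.4%), 39.7% (34.7 to 45.0%) and 23.5% (17.3 to 31.0%) in the same classes, and the intervals of the last 2 did not overlap. Near the limits of the rule, the 36 members whose summit was over 800 and up to 1000 bp from the farther 5′ end had a median of 3.42, and the 25 summits just outside, over 1000 and up to 1200 bp, had 3.24. The 7 members with 5′ ends over 700 and up to 1000 bp apart had a median of 4.49, and the 3 summits at pairs over 1000 and up to 1500 bp apart had 3.19.

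Exact matches to the CTCF consensus were nearly absent from the members. An exact match to this 12-letter consensus within 50 bp of the summit, on either strand, was present in 4 members, or 1.06% (0.411 to 2.68%), in 3.03% (2.62 to 3.50%) of the other promoter peaks and in 11.4% (11.2 to 11.7%) of all peaks. Among the other promoter peaks, it was 1.23% (0.625 to 2.41%) for those with a divergent lncRNA. Summits downstream of the 5′ end had 1.23% (0.909 to 1.655%) and those upstream 5.60% (4.75 to 6.60%). The 347 members in a gene had 0.865% (0.295 to 2.51%). At like positions the members thus did not differ from the others beyond these intervals. With 1 mismatch allowed the shares were 9.76% in the members and 14.4% in the other promoter peaks. The matches with 6 bases to either side are shown, on the strand that reads as the consensus and with the consensus in capitals, because they are the only ones.
TNS1/RUFY4 (chr2:218034906-218034929, minus strand): ttctcgCCACCAGGGGGCacaggg
CDC42SE1/GABPB2 (chr1:151071210-151071233, plus strand): aggtgaCCACTAGGGGGCggcgcg
TBC1D8/CNOT11 (chr2:101251933-101251956, minus strand): tgagaaCCACCAGGTGGCatttcc
MRPL10/LRRC46 (chr17:47831060-47831083, minus strand): gcatagCCAGCAGGTGGCatggtg

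The TNS1/RUFY4 match belonged to a peak with a fold enrichment of 16.3 and was the only one with a summit between the 5′ ends. The fold enrichment was 5.25 at CDC42SE1/GABPB2, 3.47 at TBC1D8/CNOT11 and 3.16 at MRPL10/LRRC46, with summits 665, 917 and 473 bp into the nearest gene. Among the other promoter peaks, the 176 with the consensus had a median of 11.1, and 54.5% (47.2 to 61.7%) reached at least 10. Of the 24 members with at least 10, 1 had the consensus (4.17%, 0.739 to 20.2%), compared with 96 of 829 other promoter peaks (11.6%, 9.58 to 13.9%), and these intervals overlapped. With 1 mismatch allowed, CLDN1/CLDN16, SAXO1/RRAGA, GON7/UBR7, LACTB2/XKR9, ZNF425/ZNF398 and NOP10/NUTM1 among these 24 members matched as well. In all members the share at that limit was 9.76%. Without any peak that held the consensus, a fold enrichment of at least 10 was reached by 6.13% (4.12 to 9.04%) of the members and 13.0% (12.2 to 13.9%) of the others. No match says only that these letters were not in the window.

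Short promoter motifs lay around the midpoint and less often under the summit. The ETS core, searched for on both strands, was present within 150 bp of the midpoint in 32.2% (27.7 to 37.1%) of the members, in 27.5% (24.6 to 30.7%) of all bidirectional promoters, in 10.9% (10.4 to 11.4%) of single promoters and in 12.2% of all protein-coding promoters of the same length. Within 150 bp of the summit it was present in 11.6% (8.76 to 15.2%) of the members and 9.34% (8.62 to 10.1%) of the other promoter peaks. Midpoint shares of the members were counted by peak, so a promoter with 2 peaks entered 2 times and the intervals are somewhat too narrow. Shares counted by promoter are given further below. ETS factors are activators of housekeeping promoters. The core GCATGCGC of NRF1, a regulator of nuclear genes for mitochondria, was present around the midpoint in 9.24% (6.72 to 12.6%) of the members, against 3.05% (2.81 to 3.32%) of single promoters and 3.52% of all. The core AAGATGGCG of YY1 was present in 6.07% (4.08 to 8.94%), against 2.2% (1.99 to 2.42%) of single promoters and 2.36% of all.

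The CpG-rich core GGGCGG of SP and KLF factors was common at every class, in 75.7% of the members around the midpoint, 71.8% of all bidirectional promoters, 53.0% of single promoters and 54.7% of all promoters. The shares of CCAAT were 39.6%, 40.8%, 33.0% and 33.5%. The TATA core TATAAA was present in 5.28% (3.44 to 8.01%) of the members and 5.01% (3.70 to 6.75%) of all bidirectional promoters, against 9.75% (9.32 to 10.2%) of single promoters and 9.26% of all. The less frequent cores TGACGTCA of CRE, TCTCGCGAG of ZBTB33 and ACTACAATT of ZNF143 were present around the midpoint in 3.17%, 2.64% and 1.32% of the members and in 2.19%, 0.828% and 0.362% of all promoters. Single promoters with and without a peak are mixed in these shares. Around the 5′ end at the other promoter peaks, the shares were 15.2% (ETS), 3.82% (NRF1), 3.01% (YY1), 71.1% (GGGCGG), 29.4% (CCAAT) and 5.38% (TATA). The TATA share of the members was thus close to that of the other promoter peaks. CpG content was not matched in these comparisons. The window was centred on the midpoint at bidirectional promoters and on the 5′ end at single ones, so it did not cover like stretches. Bidirectional promoters were also compared by whether they had a peak. The ETS core was present in 30.4% of 335 with a peak and 25.4% of 464 without, the NRF1 core in 9.25% and 8.41%, the YY1 core in 5.97% and 2.37%, and the GGGCGG core in 76.4% and 68.5%. The CCAAT core was present in 39.4% and 41.8%, the CRE core in 2.99% and 4.53%, and the TATA core in 5.08% and 4.96%. The median distance between the 5′ ends was 128 bp in both sets, and the median share of G and C around the midpoint was 66.1% and 64.1%.

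Genes of known housekeeping families were described by lists, to be read against the 8.68% of protein-coding genes that lay in a divergent pair and the 41.9% of bidirectional promoters with a peak. Counts at a fold enrichment of 10 or more are to be read against the 6.33% of all members. With so few peaks in each list, a count of none or 1 does not set a list apart. Of 98 DNA repair genes, 30 lay in a pair, and 13 of their 30 promoters had a member, 15 peaks in all, with a median fold enrichment of 3.50 and none at 10 or more. The highest were NPAT/ATM with 8.60 and XRCC3/ZFYVE21 with 4.39. Of 47 DNA replication genes, 12 lay in a pair and 4 of 12 promoters had a member. PCNA/CDS2, where PCNA is the sliding clamp of DNA polymerases, had 7.06 with 93 fragments and the summit 49 bp into PCNA. TIPIN/MAP2K1, where TIPIN is a protein of the replication fork, had 5.99, and the lowest was the weaker peak of VPS35/ORC6 with 3.05.

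Of 74 histone genes of the clustered families, 27 lay in a pair, and 7 of 13 promoters had a member, with a median of 3.02. All were pairs of an H2A and an H2B gene, with H2AC25/H2BC26 highest at 5.66, H2BC4/H2AC6 next at 3.75 and H2AC7/H2BC7 lowest at 2.56. Near-identical histone copies can share reads, and how such reads were counted was not given in the sources used here. Of 78 genes of the mitochondrial ribosome, 17 lay in a pair, and 10 of 16 promoters had a member, with a median of 3.04. The highest were SARS2/MRPS12 with 8.34, where SARS2 encodes the mitochondrial seryl-tRNA synthetase, and MRPL21/IGHMBP2 with 7.83, and the lowest was the weaker peak of SKA3/MRPL57 with 2.63. Of 45 genes of respiratory complex I and its assembly, 14 lay in a pair but only 2 promoters had a member, TSSK6/NDUFA13 with 4.80 and TEPSIN/NDUFAF8, which had 2 peaks of 2.47 and 2.38.

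Of 28 Mediator genes, 9 lay in a pair and 5 of 9 promoters had a member. They included the only peak of any list at 10 or more, MED23/ENPP3, followed by KLHL22/MED15 with 8.70, and PAF1/MED29 was lowest with 3.65. Of 20 genes of cohesin, CTCF and related factors, 6 lay in a pair and 2 promoters had a member. These were SUGP1/MAU2 with 2.52, where MAU2 is a subunit of the cohesin loader, and C1orf109/CDCA8 with 3.38 and 2.82, where CDCA8 encodes borealin of the chromosomal passenger complex and not a cohesin subunit. Of 59 splicing genes, 11 lay in a pair and 4 promoters had a member, from SF3B6/FAM228B with 4.78 and SRSF7/GEMIN6 with 3.47 to ORC1/PRPF38A with 3.23. Of 67 genes of RNA polymerase II and its general factors, 9 lay in a pair and 2 promoters had a member, POLR2L/TSPAN4 with 3.48 and TAF5L/URB2 with 2.59.

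The shorter lists held few pairs. Chaperones had a member at 3 of 10 promoters, APTX/DNAJA1 with 3.65, PFDN2/NIT1 with 3.09 and HSPA1L/HSPA1A with 2.41. The proteasome had one at 3 of 5, from PSMA1/PDE3B with 4.07 and SIRT3/PSMD13 with 3.35 to a readthrough pair with 2.67. The tRNA synthetases had one at 1 of 3, the same SARS2/MRPS12 promoter, and the nucleoporins at 1 of 2, DOLK/NUP188 with 2.66. Of 42 collagen genes only COL4A4/COL4A3, which encode chains of basement membrane collagen, formed such a pair, and its peak had 4.20. The 1 pair of purine and pyrimidine synthesis had none.

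Finally, 14 well-known bidirectional pairs were looked up whether or not they had a peak. Only 6 met the rule, since the annotated 5′ ends of the other 8 overlap, as at HSPD1/HSPE1, COL4A1/COL4A2, GART/SON, TAP1/PSMB9, SURF1/SURF2, MCM7/AP4M1 and BRCA2/ZAR1L. Among these 8, a summit lay 370 bp from the midpoint of the 5′ ends at SURF1/SURF2, with a fold enrichment of 4.64, and 498 bp from it at MCM7/AP4M1, with 3.33, but neither counted as a member. Of the 6, 2 had a member. At ATM/NPAT (chr11:108222865-108223321), where ATM is the kinase that responds to DNA double-strand breaks and NPAT activates histone gene transcription, the fold enrichment was 8.60 with 89 fragments on a background of 9.47, and the summit lay 3 bp into ATM. PRKDC/MCM4, FEN1/TMEM258, PMS2/AIMP2 and PPAT/PAICS had no member, and the summits nearest to their midpoints were 37237, 4504, 11812 and 32212 bp away. A promoter without a listed peak may still hold signal below the threshold of the peak caller.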

How the data were processed

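The peaks of 1 RAD21 ChIP-seq library, of untreated wild-type HCT116 cells, were analysed, with no replicate. According to the submitters' processing notes and the methods, the authors trimmed reads with Trimmomatic 0.39, aligned them with Bowtie2 2.5.3 to GRCh38, removed duplicates with Picard and called peaks with MACS2 2.2.9.1 against Input at a q-value threshold of 0.05. Which Input served the wild-type library is not given in the sources used here. The deposited list holds peak coordinates and summits with a score, a ratio (fold enrichment of ChIP fragments over local background) and the −log10 of the p-value and of the q-value. The deposited score was not used further. It holds no read totals.

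From the deposited fold and p-value, ChIP fragments and background under each summit were worked back under the Poisson model of MACS2; the number came out whole, within 0.05 of a step, in all 379 members and in 56839 of 56853 peaks. This step and the placement of summits were tested on simulated data. Genes were the protein_coding gene rows of GENCODE version 44. GC content and motifs were read from the GRCh38 reference within 150 bp, and the CTCF consensus within 50 bp, of the summit. Shares have 95% Wilson intervals, and fragment counts exact Poisson intervals, which cover counting error only. No test was made, since 1 library gives no spread between replicates and peaks are not replicates. The members, gene lists and motifs were chosen with earlier results of these data known. Named were the 12 highest and 5 lowest members, 14 well-known pairs, the 2 highest and the lowest of each of 15 gene lists, and pairs with 2 peaks that the text turns on. Some of these are not reported here. Stricter q-values, a lower background limit, other distances, canonical transcripts and other windows were alternatives; the omission of readthrough genes, the restriction to CpG-rich windows and that to peaks without the CTCF consensus were added after seeing the data. Scripts ran on samtools 1.23.1, pysam 0.24.0, numpy 2.4.6, scipy 1.17.1, pandas 2.3.3 and matplotlib 3.10.9 under Python 3.11.15.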

Additional observations from a re-analysis of the deposited data

How the results depend on the processing

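Under 98 alternatives, 55 values stayed within their counting interval (counts within 1.5 times) and 43 moved outside it. Each is a count, median or share of 1 group and has no direction that could reverse. The median fold enrichment of the members stayed below that of the other promoter peaks in all 9 settings that gave both. These settings drew on the same list of peaks and are not independent. With q at most 0.001 the medians were 3.53 and 3.99, the shares of bidirectional and single promoters with a peak 37.4% and 29.1%, and the median of pairs from 100 to below 300 bp apart 3.49. With q at most 1e-05, which keeps stronger peaks by construction, 240 members were left, with medians of 3.97 against 4.72, 10.0% at a fold enrichment of at least 10, a width of 523.5 bp, 28.7% and 23.2% of promoters with a peak, a CTCF consensus in 4.43% of the other promoter peaks, and medians of 3.84, 4.06 and 4.28 for pairs below 100, from 100 to below 300 and from 300 to 1000 bp apart. A background below 2 times the floor gave 31.0% of single promoters. A summit limit of 500 bp left 239 members and 28.8% of bidirectional promoters, and the equal windows of 500 bp gave 34.9% and 24.0%. Canonical transcripts gave a median of 3.64 in the other promoter peaks and 34.2% of single promoters. CpG-rich windows only and peaks without the CTCF consensus gave medians of 3.62 and 3.66 in the other promoter peaks, and a limit of 5 in place of 10 gave 19.5% of members. Allowing 1 mismatch raised the CTCF consensus to 9.76% and 14.4%. Motif shares of the members depended on the window. Within 75 bp of the summit they were 4.22% (ETS), 0.264% (NRF1), 0.528% (YY1), 6.33% (NFY), 39.1% (SP/KLF), 0.0% (ZBTB33) and 0.0% (TATA), and around the midpoint 32.2% (ETS), 9.24% (NRF1), 6.07% (YY1), 39.6% (NFY), 75.7% (SP/KLF), 3.17% (CRE), 2.64% (ZBTB33) and 5.28% (TATA). Beyond the construction of each setting, the cause was not tested. Of the members 19 rested on a readthrough gene, and without such genes 366 remained with a median of 3.41. No paired analysis was possible because 1 library was analysed. Depth limits the weak members, since a median of 29 fragments at the summit leaves wide counting error, and peaks below the threshold were not listed.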

Other observations

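The share of bidirectional promoters with a RAD21 peak varied between chromosomes. It was lowest on chromosome 19, with 18 of 66 promoters or 27.3%, and highest on chromosome 21, with 4 of 6 or 66.7%. On chromosome 10 it was 65.2% (15 of 23) and on chromosome 17 it was 58.8% (30 of 51). Shares from so few promoters have wide counting error. Single promoters were not compared by chromosome, so the variation cannot be assigned to bidirectional promoters. Chromosome 20 had 7 members with a median fold enrichment of 7.06, among them CENPB/CDC25B and PCNA/CDS2, while the medians of the other chromosomes lay between 3.04 and 3.98. Another summit with a fold enrichment of at least 10 lay within 10 kb of 12.1% of the members, 16.9% of the other promoter peaks and 17.4% of all peaks. These are values of 1 library, and no cause of the differences was tested.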
